A study of Mus musculus with 36 samples.

Results

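The potassium channel genes described here were chosen by symbol and level from the deposited table of read counts: every protein-coding gene whose symbol begins with Kcn and whose mean over all libraries reached at least 1 CPM, the read count of a gene scaled to the same total in every library. Of the 94 protein-coding Kcn genes in the table, 80 met this rule and 14 fell below it, out of 54532 genes listed in all. All 80 passed the filter on low counts and were tested among 18438 genes. The members nearest to the threshold were Kcnh8 at 1.06 CPM, Kcnrg at 1.11 CPM and Kcnk5 at 1.20 CPM, and the nearest genes below it were Kcnq1 at 0.850 CPM, Kcnn4 at 0.778 CPM and Kcnk15 at 0.554 CPM. The members fall into 21 subfamilies named by the letters after Kcn.

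RNA of whole brains was sequenced from mice of WT C57BL/6 genotype, taken on day 19, when experimental autoimmune encephalomyelitis (EAE) was at its peak. EAE is a mouse model of inflammatory demyelination of the central nervous system. There were 10 libraries from EAE mice given farnesol (trans, trans-farnesol, an isoprenoid alcohol) at 100 mg per kg per day in corn oil by gavage, 9 from EAE mice given corn oil alone as vehicle, 9 from EAE mice left untreated and 8 from naive mice without EAE. The EAE groups shared immunization with the MOG35-55 peptide of myelin oligodendrocyte glycoprotein in complete Freund's adjuvant and pertussis toxin, and no group had the adjuvant and toxin alone, so that effects of the disease and of its induction cannot be told apart. Age and sex are not given in the labels used here. The labels number the libraries of a group as replicates and do not say that each came from another animal, so p-values measure the spread between these libraries.

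Potassium channels let potassium leave the cell and so set the resting potential of neurons and glia, repolarize the action potential and limit repetitive firing. Voltage-gated subunits assemble as tetramers, silent subunits open no channel by themselves and join Kcnb tetramers, inward rectifiers hold the resting potential and clear potassium in astrocytes, and channels with paired pore domains carry leak current. In brain tissue most of these genes are known from neurons, with exceptions in astrocytes, microglia, choroid plexus and vessel walls.

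The promoters of 3 members on which results below turn are shown so that their sequence can be read beside their values: Kcnip3 differed between EAE groups, Kcnj16 is an astrocyte subunit that fell, and Kcnh5 had the largest fall in farnesol and vehicle EAE. Each is 300 bases, 250 before the start site and 50 from it, 5′ to 3′ on the gene's strand, from RefSeq on GRCm38.p6. Capitals mark a match to TTCNNNGAA, the letters of a STAT site, in Kcnip3 (chr2:127522045-127522344, minus strand) and Kcnj16 (chr11:110967783-110968082, plus strand), and a match to GGGCGG, the GC box, in Kcnh5 (chr12:75177283-75177582, minus strand).
Kcnip3: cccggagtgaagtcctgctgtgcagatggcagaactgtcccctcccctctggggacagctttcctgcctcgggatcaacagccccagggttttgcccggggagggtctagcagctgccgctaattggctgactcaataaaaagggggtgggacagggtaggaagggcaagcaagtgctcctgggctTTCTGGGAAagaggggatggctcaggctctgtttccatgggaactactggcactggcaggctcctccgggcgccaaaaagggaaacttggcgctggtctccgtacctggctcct
Kcnj16: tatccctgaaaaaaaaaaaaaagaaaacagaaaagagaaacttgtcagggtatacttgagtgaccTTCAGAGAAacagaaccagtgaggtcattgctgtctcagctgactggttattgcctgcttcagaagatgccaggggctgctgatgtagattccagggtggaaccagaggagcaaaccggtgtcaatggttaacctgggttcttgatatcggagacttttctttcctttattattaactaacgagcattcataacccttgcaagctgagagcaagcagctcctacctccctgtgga
Kcnh5: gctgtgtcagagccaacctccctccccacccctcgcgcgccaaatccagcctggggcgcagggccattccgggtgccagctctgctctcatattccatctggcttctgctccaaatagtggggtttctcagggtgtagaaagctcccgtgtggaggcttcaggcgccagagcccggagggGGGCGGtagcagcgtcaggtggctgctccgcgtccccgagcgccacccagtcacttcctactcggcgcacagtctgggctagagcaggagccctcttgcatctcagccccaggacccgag
A promoter window was found for 58 of the 80 members, taken nearest to the annotated start where a gene had several. On either strand, GGGCGG occurred in 53.4% of the members' windows (31) and in 36% of all 27025 windows. TTCNNNGAA occurred in 10.3% of the members' windows, those of Kcnip3, Kcnj16, Kcnj6, Kcnj9, Kcnk4 and Kcnmb2, and in 8.35% of all windows. TGACGTCA, the cyclic AMP response element, occurred in 0 of the members' windows and in 1.86% of all windows. A match is a run of letters, not a site shown to be bound.

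Library totals ran between 14705992 and 24211092 counts. Every marker of the brain regions and cell types listed had counts in at least 1 library of each group. Means were below 1 CPM for 8 of 12 T-cell markers, Tbx21 of the olfactory bulb list and Tagln of the pericyte list. Libraries fell into 2 sets by CT010467.1, a gene annotated as ribosomal RNA: at most 2790 CPM in 21 libraries, which were farnesol replicates 1 to 3 and every vehicle and untreated library, and at least 5081 CPM in 15 libraries, which were farnesol replicates 4 to 10 and every naive library. Vehicle against naive and untreated against naive therefore compare different sets, and group and set cannot be told apart there, whereas farnesol against naive can be measured within the second set. Farnesol against vehicle and farnesol against untreated EAE also compare different sets in part, through farnesol replicates 4 to 10. Farnesol replicate 2, untreated replicate 3 and naive replicate 4 were low in cerebellar genes.

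Per kilobase of exon, Kcnab2, a cytoplasmic beta subunit of Kv1 channels, was the highest member at 82.1 CPM per kb, and Kcnj10, the main inward rectifier of astrocytes, was among the next at 66.3 CPM per kb, as means over 36 libraries. In farnesol brains Kcnab2 stood at 80.8 ± 4.05 CPM per kb and Kcnj10 at 62.4 ± 8.36 CPM per kb (SD, n = 10). In naive brains Kcnab2 stood at 88.0 ± 5.28 and Kcnj10 at 74.3 ± 12.98 CPM per kb (SD, n = 8). Summed by subfamily, the 13 Kcnj genes gave 200.4 CPM per kb, 19.3% of the members' total, followed by Kcnc with 152 (14.7%), Kcnab with 121 (11.7%) and Kcnk with 102 (9.86%). The lowest sums belonged to Kcnu, with 0.612 CPM per kb from Kcnu1, and Kcnrg, with 0.607.

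**Figure D1:**
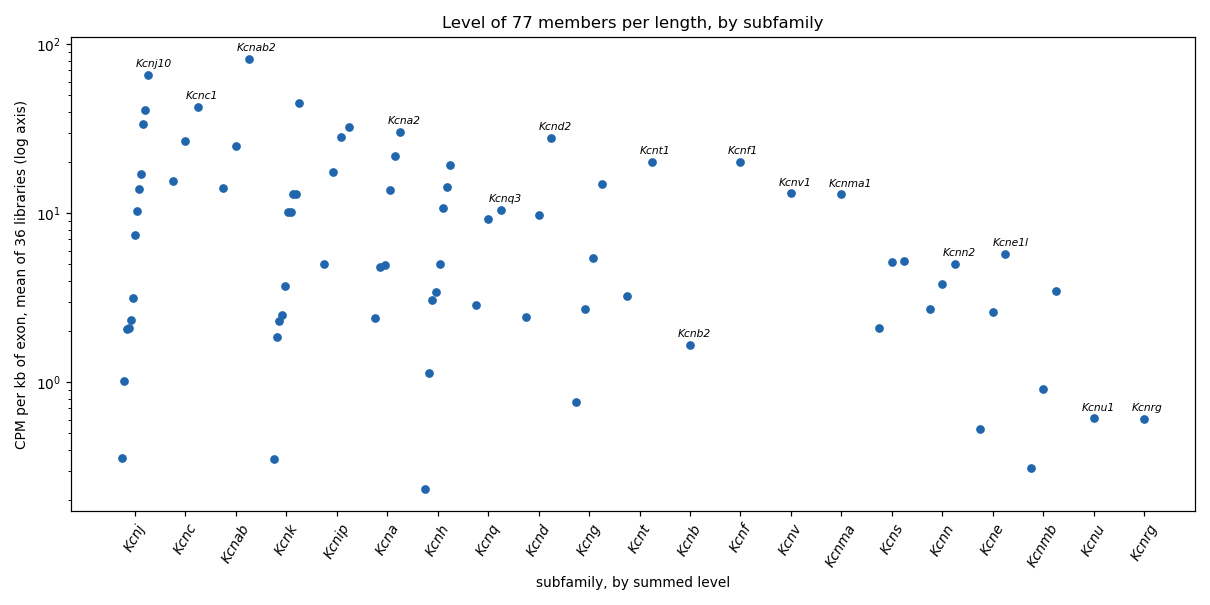
Level per length of 77 members, as CPM per kb of exon on a log axis (mean of 36 libraries), by subfamily in order of the subfamily's summed level over all members. Each point is 1 gene and some of the highest are named; Kcnab2 stands highest at 82.1 CPM per kb, and Kcnj10 is at 66.3 CPM per kb.

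Kcnc1, a fast-deactivating Kv3 subunit of rapidly firing neurons, varied between libraries of the same group. It had 252 CPM in farnesol replicate 2, where the median of its group was 405 CPM. In untreated replicate 3 it had 302 CPM, where the group median was 389.9, and in naive replicate 4 it had 315 CPM, where the group median was 412. These were the lowest values of each group, in the 3 libraries low in cerebellar genes. Over all libraries Kcnc1 was not called against naive in any EAE group, with log2 changes of -0.03 ± 0.09 in farnesol, 0.04 ± 0.09 in vehicle and -0.04 ± 0.09 in untreated EAE (± is the SE of a log2 change throughout).

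Against naive brain, the EAE brains had few potassium channel genes that rose and several times as many that fell; Kcnk6, Kcnt1, Kcnh5 and Kcnj4 were the only called members past 0.5 on the log2 scale in any of the 3 comparisons. In farnesol EAE, 22 of the 80 members were called (edgeR quasi-likelihood test, Benjamini-Hochberg adjusted p below 0.05), 4 higher and 18 lower, where 34.2% of all tested genes were called, 17.9% higher and 16.3% lower. In vehicle EAE 25 were called, 4 higher and 21 lower, where 31.5% of all genes were called, 16.3% higher and 15.2% lower. In untreated EAE 15 were called, 3 higher and 12 lower, where 24.9% of all genes were called, 13.6% higher and 11.3% lower. The members' share of calls was thus near or below that of all genes, while their split by direction leaned to falls. The median log2 change of the members was -0.07, -0.11 and -0.04 in farnesol, vehicle and untreated EAE, beside medians of 0.01, 0.00 and -0.01 over all genes tested, and 55, 57 and 54 of the 80 members lay below 0, beside 49.1%, 49.3% and 51.1% of all genes. Every library of the EAE group lay beyond every naive library for 2 members in farnesol EAE (Kcnn2 and Kcnt1), 7 in vehicle EAE (Kcnh1, Kcnh5, Kcnip3, Kcnj3, Kcnj4, Kcns2 and Kcnt1) and 0 in untreated EAE, where this held for 4.85%, 6.82% and 3.64% of all genes tested. These 3 comparisons share the 8 naive libraries, so their counts are not independent. In whole tissue, fewer cells of a type and less RNA per cell cannot be told apart.

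With a term for the library set in the fit, 21 members were called in farnesol, 9 in vehicle and 1 in untreated EAE, where 26.3%, 3.71% and 0.949% of all genes were called. In that fit the set is estimated from the farnesol libraries, 3 of one set against 7 of the other, for all groups. The 9 in vehicle EAE were Kcnt1, which rose, and Kcnf1, Kcnq5, Kcna4, Kcns2, Kcnh7, Kcnq3, Kcnip3 and Kcnj3, which fell, and the 1 in untreated EAE was Kcna4, which fell. Every other call of a member in vehicle or untreated EAE against naive given below was lost in that fit. For the partner and marker genes below, no values from that fit are given. Of the calls that held, Kcnf1 moved to -0.71, Kcnq5 to -0.69, Kcns2 to -0.55 and Kcnq3 to -0.50 in vehicle EAE. Of the 3 farnesol libraries of the first set, replicate 2 was low in cerebellar genes. It had the highest farnesol value of each of these genes, 135, 111, 37.5 and 199 CPM in that order. Its part in these changes was not tested.

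**Figure D2:**
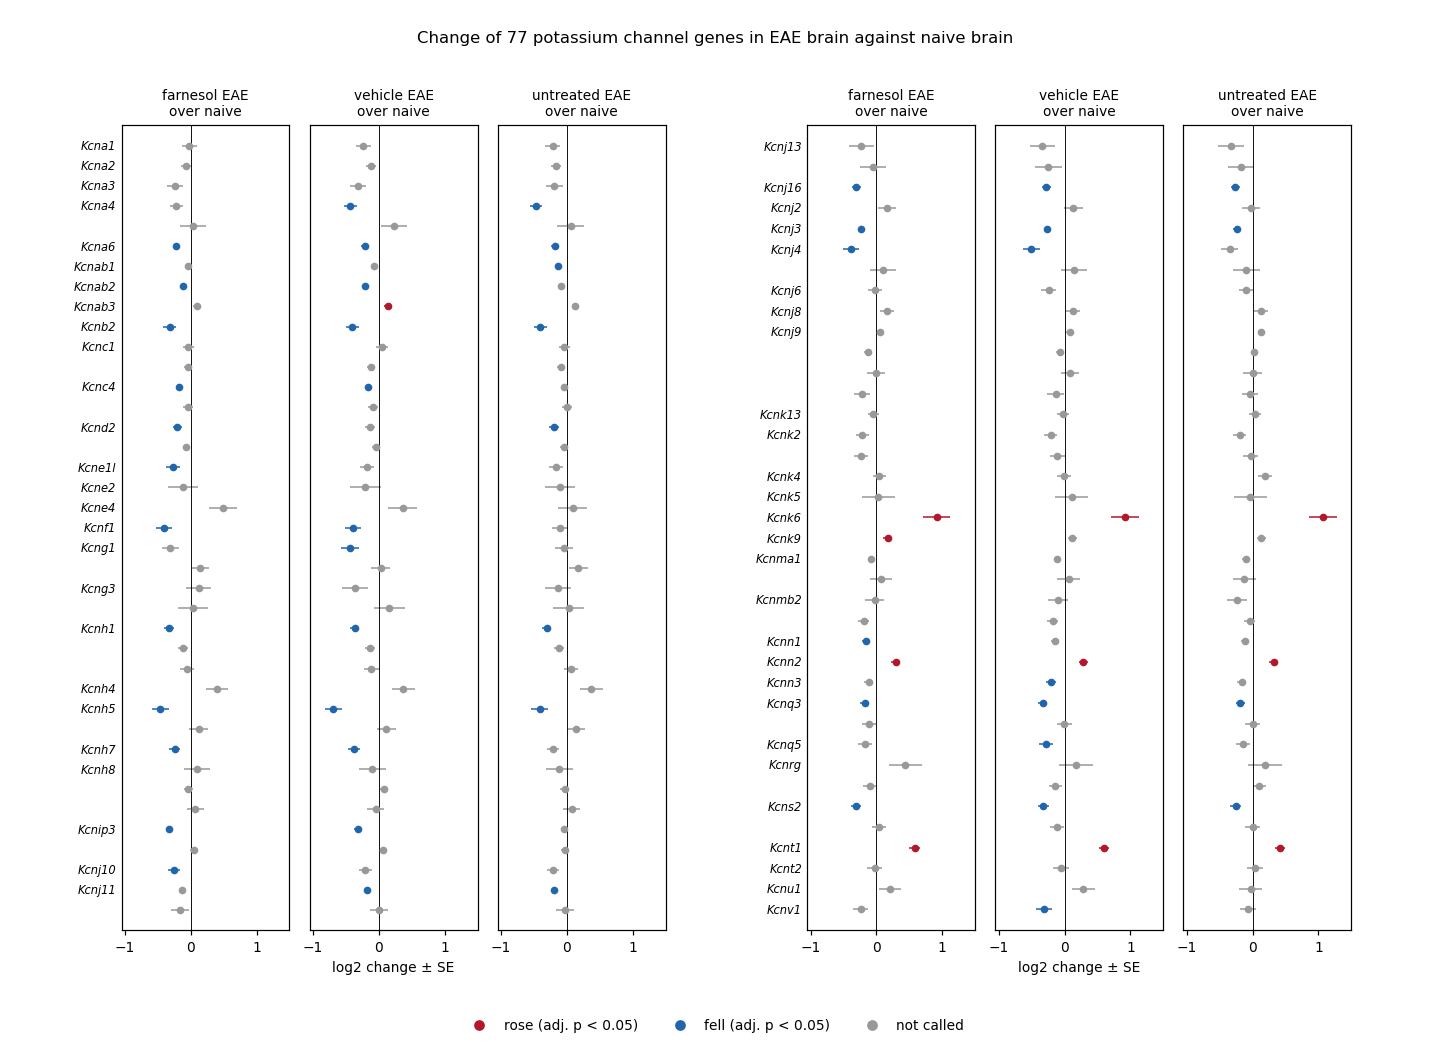
Log2 change ± SE of 77 members in farnesol, vehicle and untreated EAE over naive brain (n = 10, 9 and 9 against 8), in 2 columns of genes, with names for those the text describes. Red points rose, blue points fell and grey points were not called; Kcnk6 stands farthest right in the 3 panels and Kcnh5 farthest left in those of farnesol and vehicle EAE.

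The largest rise was that of Kcnk6, a leak channel with paired pore domains that is known in mouse macrophages for the potassium efflux that triggers the inflammasome (chr7:29221926-29232515). Its lowest, median and highest values were 4.39, 7.79 and 14.7 CPM in farnesol EAE, 4.68, 7.84 and 15.9 CPM in vehicle EAE, 4.66, 10.6 and 12.8 CPM in untreated EAE, and 3.76, 4.36 and 5.41 CPM in naive brain. It lay above every naive library in 9 of 10 farnesol, 8 of 9 vehicle and 8 of 9 untreated libraries, so the groups overlapped through 1 low library each. Its log2 change was 0.91 ± 0.21 in farnesol (adjusted p = 0.000974), 0.92 ± 0.21 in vehicle (adjusted p = 0.00111) and 1.08 ± 0.21 in untreated EAE (adjusted p = 0.000279). For 12 markers of infiltrating myeloid cells, summed CPM ran from 149.8 to 368.9 in farnesol and 148.9 to 654.4 in vehicle libraries. It was 125.2 to 328.3 in untreated and 75.68 to 85.45 in naive libraries. Of the 12 markers 12, 12 and 11 were called higher, where 17.9%, 16.3% and 13.6% of all genes were. Their median log2 change was 3.49 in farnesol, 3.73 in vehicle and 3.35 in untreated EAE, where Kcnk6 rose most. The farnesol library with the most Kcnk6, 14.7 CPM, had the highest myeloid sum of its group, 368.9 CPM, and the vehicle library with the most, 15.9 CPM, had the highest of its group, 654.4 CPM. In untreated EAE the library with the most Kcnk6, 12.8 CPM, had a myeloid sum of 280.6 CPM and was not the highest. The summed CPM of 12 microglial markers ran from 804 to 1351 in farnesol, 844.3 to 1579 in vehicle, 875.8 to 1450 in untreated and 865.2 to 1111 in naive libraries, with 1, 1 and 5 markers called higher and 0, 2 and 0 lower. Their highest sums in farnesol and vehicle EAE were in the same libraries as the most Kcnk6, and in untreated EAE in another one. The part of either cell type in the rise was not tested. Within the second library set its log2 change in farnesol EAE was 0.76 ± 0.14 (adjusted p = 0.000401), and with a term for the set it was 0.44 in vehicle and 0.60 in untreated EAE, neither called.

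Kcnt1, the sodium-activated channel Slack of neurons (chr2:25863734-25918273), rose next most. It ran over 171, 211 and 238 CPM (lowest, median, highest) in farnesol EAE, 187, 215 and 244 CPM in vehicle EAE, 152, 188 and 256 CPM in untreated EAE, and 118, 144 and 155 CPM in naive brain. Every farnesol and vehicle library exceeded every naive library, as did 8 of 9 untreated libraries. The log2 change was 0.58 ± 0.08 in farnesol (adjusted p = 1.14e-06), 0.60 ± 0.08 in vehicle (adjusted p = 9.37e-07) and 0.42 ± 0.08 in untreated EAE (adjusted p = 0.000202), and 0.61 ± 0.06 for farnesol within the second library set. Its paralog Kcnt2 was not called, at -0.03, -0.05 and 0.04.

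Kcnn2, a small-conductance calcium-activated channel that shapes the afterhyperpolarization of neurons (chr18:45268860-45686024), also rose in each EAE group. Its values were 35.7, 38.2 and 44.4 CPM in farnesol EAE, 32.6, 40.1 and 42.4 CPM in vehicle EAE, 32.0, 39.7 and 50.7 CPM in untreated EAE, and 27.7, 31.7 and 35.3 CPM in naive brain. The farnesol libraries lay wholly above the naive ones, and the other EAE groups overlapped them in part. The log2 change was 0.29 ± 0.07 in farnesol, 0.28 ± 0.07 in vehicle and 0.32 ± 0.07 in untreated EAE (adjusted p = 0.00102, 0.00154 and 0.000612). Sbp, a gene known from the prostate, had over 1 CPM in untreated replicates 1 to 5 and vehicle replicates 3 to 5. That is 5 of 9 untreated and 3 of 9 vehicle libraries, and 0 in farnesol EAE and naive brain. Without these libraries the untreated change of Kcnn2 was 0.18 and not called. Among the related small-conductance genes Kcnn1 fell in farnesol EAE (-0.16 ± 0.06, adjusted p = 0.0385) and Kcnn3 fell in vehicle EAE (-0.21 ± 0.07, adjusted p = 0.0254). Both calls were lost with no count filter and without the libraries low in cerebellar genes, and that of Kcnn1 also with a minimum count of 30 and with the replicate block. The calcium-activated big-conductance channel Kcnma1 was not called at -0.08, -0.11 and -0.10. Of the 7 members of the Kcnma, Kcnn, Kcnt and Kcnu subfamilies, 2 rose in each comparison and 1, 1 and 0 fell. Over all genes 17.9%, 16.3% and 13.6% rose and 16.3%, 15.2% and 11.3% fell.

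**Figure D3:**
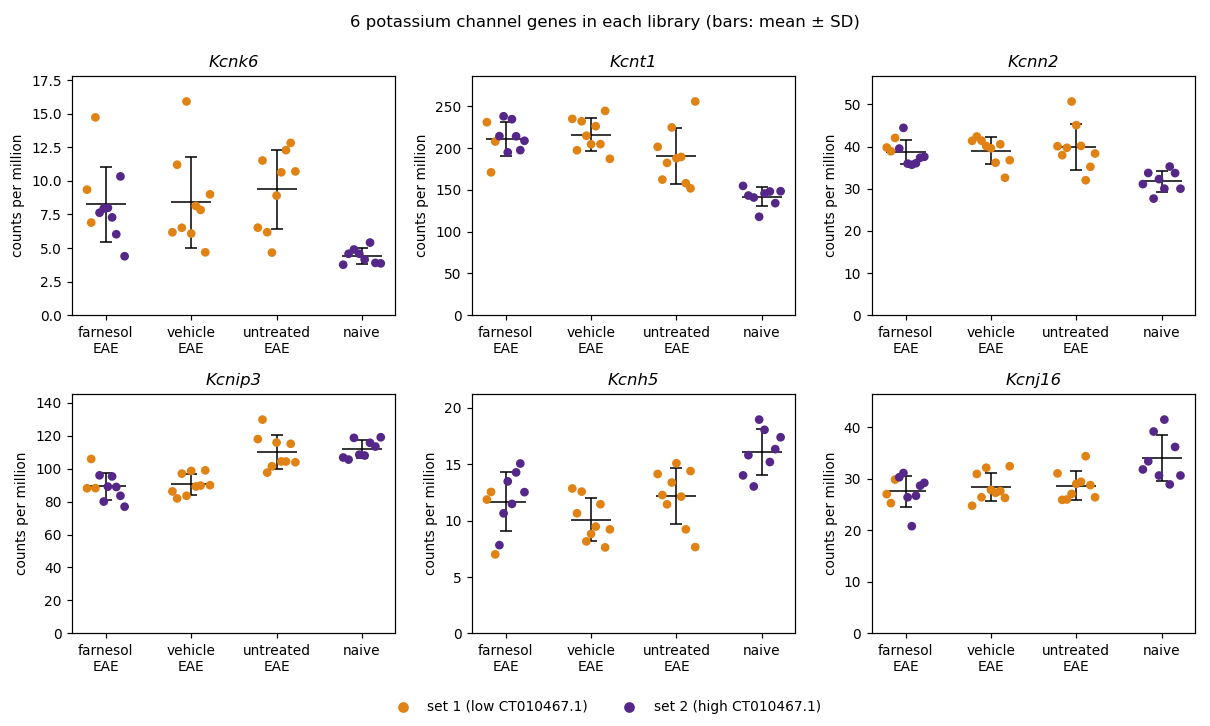
CPM of Kcnk6, Kcnt1, Kcnn2, Kcnip3, Kcnh5 and Kcnj16 in each library of the farnesol EAE, vehicle EAE, untreated EAE and naive groups, with mean ± SD as bars and each axis starting at 0. Colours mark the library set (low or high CT010467.1); Kcnt1 in farnesol and vehicle EAE stands above all naive libraries, and Kcnip3 in untreated EAE overlaps the naive libraries.

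The 10 paired-pore-domain leak channels gave no fall in any comparison over all libraries. Against naive, 16.3%, 15.2% and 11.3% of all genes fell in farnesol, vehicle and untreated EAE. Besides Kcnk6, Kcnk9, an acid-sensitive leak channel of neurons, rose in farnesol EAE, with 130.2 ± 12.6 CPM against 116 ± 9.71 CPM in naive brain (log2 change 0.17 ± 0.07, adjusted p = 0.0393). Its log2 change was 0.12 ± 0.07 in vehicle and 0.13 ± 0.07 in untreated EAE, neither called, and its difference between farnesol and vehicle EAE was 0.06 ± 0.06, not called. The farnesol call was lost with no count filter and with the set term. Kcnk13, the tonic potassium channel of mouse microglia, was not called at -0.05, -0.02 and 0.04, with 11.1 ± 1.60 CPM in farnesol, 11.5 ± 1.40 in vehicle, 11.9 ± 1.35 in untreated and 11.5 ± 1.64 in naive brain.

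Among the 27 voltage-gated pore-forming members every call against naive was a fall, where 16.3%, 15.2% and 11.3% of all genes fell. These falls numbered 8 in farnesol, 10 in vehicle and 7 in untreated EAE. In farnesol EAE the falls included at least 1 gene of each of the subfamilies Kcna, Kcnb, Kcnc, Kcnd, Kcnh and Kcnq. Kcnh5, an ether-a-go-go channel (chr12:74897220-75177332), had the largest fall in farnesol and vehicle EAE. It ran over 7.01, 12.2 and 15.1 CPM in farnesol EAE, 7.63, 9.47 and 12.9 CPM in vehicle EAE, 7.65, 12.3 and 15.1 CPM in untreated EAE, and 13.03, 16.1 and 18.97 CPM in naive brain. All 9 vehicle libraries lay below all naive libraries, as did 7 of 10 farnesol and 5 of 9 untreated libraries. The log2 change was -0.47 ± 0.13 (adjusted p = 0.00539) in farnesol, -0.69 ± 0.13 (adjusted p = 0.000157) in vehicle and -0.41 ± 0.13 (adjusted p = 0.0190) in untreated EAE. The untreated change was -0.19 with the set term and -0.37 without the libraries low in cerebellar genes, neither called.

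Kcnh1, its closest relative in the list (chr1:192190774-192510159), had 62.8, 76.1 and 87.9 CPM in farnesol EAE, 58.6, 73.5 and 80.7 CPM in vehicle EAE, 56.9, 76.6 and 93.5 CPM in untreated EAE, and 84.6, 93.9 and 106 CPM in naive brain. The vehicle libraries did not reach the naive range, and 9 of 10 farnesol and 8 of 9 untreated libraries lay below it. Kcnh1 thus fell by log2 changes of -0.33 ± 0.07 in farnesol, -0.37 ± 0.07 in vehicle and -0.31 ± 0.07 in untreated EAE (adjusted p = 0.000576, 0.000229 and 0.00200), the last of which was -0.20 with the set term and not called. Kcnh7, of the erg branch, fell in farnesol (-0.24 ± 0.09, adjusted p = 0.0312) and vehicle EAE (-0.38 ± 0.09, adjusted p = 0.00160) and was at -0.21, not called, in untreated EAE; the farnesol call was lost with a minimum count of 30. The other 5 Kcnh members were not called in any of these comparisons.

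Kcnb2, a delayed rectifier (chr1:15287254-15723750), ran over 20.96, 23.5 and 34.8 CPM in farnesol EAE, 18.9, 21.8 and 30.8 CPM in vehicle EAE, 18.0, 23.3 and 29.7 CPM in untreated EAE, and 25.1, 29.6 and 36.5 CPM in naive brain. The ranges overlapped in every comparison, with 7 of 10 farnesol, 6 of 9 vehicle and 7 of 9 untreated libraries below all naive ones. Kcnb2 had log2 changes of -0.32 ± 0.10, -0.40 ± 0.10 and -0.40 ± 0.10 (adjusted p = 0.0118, 0.00264 and 0.00331).

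Kcnq3, a subunit of the M-current that restrains firing (chr15:65986387-66286642), ran over 119.8, 151 and 199 CPM in farnesol EAE, 127, 139 and 161 CPM in vehicle EAE, 126, 159 and 169 CPM in untreated EAE, and 154, 170.4 and 209 CPM in naive brain. The ranges overlapped in every comparison, with log2 changes of -0.18 ± 0.07, -0.33 ± 0.07 and -0.19 ± 0.07 (adjusted p = 0.0433, 0.000396 and 0.0444). The vehicle call held under all 10 alternatives. The untreated call was lost in 6 of 10, among them RLE scaling and the set term, where it was -0.36, and the farnesol call in 3 of 11, those with no count filter, a minimum count of 30 and only the groups compared. Its relative Kcnq5 fell in vehicle EAE (-0.29 ± 0.11, adjusted p = 0.0396), a call lost with no count filter, without the libraries low in cerebellar genes and without those with Sbp.

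Kcna6, a Kv1 subunit (chr6:126708329-126740674), ran over 68.7, 76.6 and 87.3 CPM in farnesol EAE, 69.6, 79.2 and 87.6 CPM in vehicle EAE, 69.2, 82.1 and 89.2 CPM in untreated EAE, and 82.0, 92.6 and 98.6 CPM in naive brain. The farnesol and vehicle medians lay below the lowest naive library, and the untreated median just above it. Kcna6 had log2 changes of -0.22 ± 0.05, -0.22 ± 0.05 and -0.18 ± 0.05 (adjusted p = 0.00102, 0.00183 and 0.00904). With the set term they were -0.17 in farnesol, still called, and -0.04 in vehicle and -0.01 in untreated EAE, neither called. The untreated call was also lost without the libraries with Sbp. Because 39.6% of its exonic length overlaps Gm26673 and the use of strand in counting is not given, its reads cannot be told from those of that gene. Kcna4, the inactivating A-type Kv1 subunit, fell in vehicle (-0.43 ± 0.10, adjusted p = 0.000881) and untreated EAE (-0.47 ± 0.10, adjusted p = 0.000501), with 24.0 ± 3.87 CPM in farnesol, 20.9 ± 2.08 in vehicle, 20.4 ± 3.58 in untreated and 27.9 ± 3.93 CPM in naive brain. In farnesol EAE it was at -0.22 and not called over all libraries, and at -0.28 ± 0.09 (adjusted p = 0.0268) within the second library set. Kcna1 and Kcna2, the juxtaparanodal channels that myelin covers along axons, were not called in any comparison: Kcna1 was at -0.02, -0.24 and -0.21 and Kcna2 at -0.07, -0.12 and -0.16. Kcna3, the channel of effector T cells that microglia also use, was not called at -0.24, -0.32 and -0.19. T-cell markers rose in 7, 7 and 8 of the 10 tested, where 17.9%, 16.3% and 13.6% of all genes rose. Of the 12 T-cell markers listed, 8 had means below 1 CPM.

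Kcnd2, the A-type channel of neuronal dendrites, fell in farnesol (137 ± 14.0 against 158 ± 18.4 CPM, -0.20 ± 0.07, adjusted p = 0.0207) and untreated EAE (-0.20 ± 0.07, adjusted p = 0.0394) and was at -0.13, not called, in vehicle EAE. Kcnc4, the inactivating Kv3 subunit, fell in farnesol (-0.17 ± 0.05, adjusted p = 0.00992) and vehicle EAE (-0.16 ± 0.05, adjusted p = 0.0193) and was at -0.04 in untreated EAE. With the set term Kcnd2 was at 0.01 in untreated EAE and Kcnc4 at 0.02 in vehicle EAE, and both calls were lost as well with no count filter and without the libraries with Sbp. The untreated call of Kcnd2 was also lost with only the groups compared. Neither Kcnd2 (-0.14) nor Kcnc4 (-0.11) was called for farnesol within the second library set.

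Among the 9 silent subunits every call against naive was a fall, 2 in farnesol, 4 in vehicle and 1 in untreated EAE. In the same comparisons 16.3%, 15.2% and 11.3% of all genes fell. Kcns2 (chr15:34837355-34843407) ran over 23.1, 25.3 and 37.5 CPM in farnesol EAE, 24.2, 27.1 and 29.8 CPM in vehicle EAE, 23.2, 28.3 and 35.3 CPM in untreated EAE, and 30.3, 33.3 and 37.5 CPM in naive brain. All vehicle libraries lay below all naive ones, and the highest farnesol value came from replicate 2, a library low in cerebellar genes. Kcns2 had log2 changes of -0.31 ± 0.08, -0.32 ± 0.08 and -0.26 ± 0.08 (adjusted p = 0.00297, 0.00244 and 0.0191), with -0.48 and no call in untreated EAE under the set term. Kcnf1 averaged 85.05 ± 20.95 CPM in farnesol, 86.9 ± 9.91 in vehicle, 105.8 ± 23.4 in untreated and 113 ± 15.1 in naive brain, with log2 changes of -0.41 ± 0.12 in farnesol (adjusted p = 0.00666) and -0.39 ± 0.12 in vehicle EAE (adjusted p = 0.0114), and -0.11 in untreated EAE, not called. Kcng1 (-0.44 ± 0.14, adjusted p = 0.0123) and Kcnv1 (-0.31 ± 0.12, adjusted p = 0.0487) fell in vehicle EAE and were not called in the other EAE groups. With the set term Kcng1 was at -0.51 and Kcnv1 at -0.66, neither called, and the call of Kcnv1 was lost in 6 of 10 alternatives, among them RLE scaling and a minimum count of 30.

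Among the 13 inward rectifiers every call was again a fall, 4 in farnesol, 4 in vehicle and 3 in untreated EAE. In the same comparisons 16.3%, 15.2% and 11.3% of all genes fell. The summed level of the 13 inward rectifiers was 743 to 846 CPM in farnesol and 777 to 847 in vehicle libraries. It was 731 to 899 in untreated and 867 to 1019 in naive libraries, so untreated EAE alone reached the naive range. Kcnj10 weighs most in this sum, with means of 337, 352, 349 and 402 CPM in farnesol, vehicle, untreated and naive libraries. The mean sums were 801, 814, 825 and 914 CPM. Vehicle and untreated libraries differ from naive ones in library set as well. Kcnj16, which joins Kcnj10 in the channels of astrocytes (chr11:110968033-111027968), ran over 20.8, 27.8 and 31.1 CPM in farnesol EAE, 24.8, 27.6 and 32.4 CPM in vehicle EAE, 25.9, 28.7 and 34.4 CPM in untreated EAE, and 28.9, 32.6 and 41.5 CPM in naive brain. The groups overlapped, with 6 of 10, 6 of 9 and 5 of 9 EAE libraries below the naive range. Its log2 changes were -0.30 ± 0.07, -0.27 ± 0.07 and -0.26 ± 0.07 (adjusted p = 0.00135, 0.00433 and 0.00843), and the untreated call was lost without the libraries with Sbp. Kcnj10 averaged 337 ± 45.2 CPM in farnesol, 352 ± 41.5 in vehicle, 349 ± 51.9 in untreated and 402 ± 70.2 in naive brain, called in farnesol EAE over all libraries (-0.25 ± 0.09, adjusted p = 0.0340) and not in vehicle (-0.20) or untreated EAE (-0.21), nor for farnesol within the second library set (-0.20). Of 12 astrocyte markers 1 rose in each comparison, Gfap, and 5, 3 and 5 fell, and their summed level was 6303 to 7086 CPM in farnesol, 6060 to 7393 in vehicle, 6009 to 7609 in untreated and 6929 to 8880 CPM in naive libraries. Their part in the falls of Kcnj10 and Kcnj16 was not tested. Kcnj10 lies 11.9 kb from Kcnj9, and Kcnj16 lies 38.2 kb from Kcnj2; neither neighbour was called, at 0.05, 0.08 and 0.13 for Kcnj9 and 0.16, 0.14 and -0.02 for Kcnj2.

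Kcnj3, a subunit of the G-protein-gated channels that slow neurons (chr2:55435970-55598145), ran over 70.8, 88.1 and 96.0 CPM in farnesol EAE, 72.8, 87.5 and 93.9 CPM in vehicle EAE, 74.4, 86.4 and 97.5 CPM in untreated EAE, and 94.3, 102 and 106 CPM in naive brain. In farnesol EAE 9 of 10 libraries, in vehicle EAE all 9 and in untreated EAE 8 of 9 lay below the naive range. Kcnj3 had log2 changes of -0.23 ± 0.05, -0.26 ± 0.05 and -0.24 ± 0.05 (adjusted p = 0.000440, 0.000109 and 0.000380). Of its exonic length 31.1% overlaps Gm26794, whose reads cannot be told apart from its own without strand. Kcnj4, a strong rectifier of forebrain neurons, fell in farnesol (82.6 ± 21.8 against 108 ± 13.1 CPM, -0.39 ± 0.13, adjusted p = 0.0186) and vehicle EAE (76.9 ± 7.19 CPM, -0.50 ± 0.13, adjusted p = 0.00340) and was at -0.35, not called, in untreated EAE. Kcnj11, the pore of ATP-sensitive channels in neurons, fell in vehicle (-0.17 ± 0.06, adjusted p = 0.0182) and untreated EAE (-0.19 ± 0.06, adjusted p = 0.0128). With the set term it was at -0.00426 in vehicle and -0.02 in untreated EAE, neither called. Without the libraries with Sbp the untreated change was -0.29, still called, and the vehicle call was lost, as it was with no count filter. Kcnj8, the vascular ATP-sensitive pore, was not called at 0.16, 0.12 and 0.13. The choroid plexus genes Kcnj13, at -0.23, -0.33 and -0.33, and Kcne2, at -0.11, -0.20 and -0.10, were not called either; 49.1% of the exonic length of Kcnj13 overlaps Gigyf2.

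Of the 14 auxiliary members, 0, 1 and 0 rose and 3, 2 and 1 fell. Over all genes 17.9%, 16.3% and 13.6% rose and 16.3%, 15.2% and 11.3% fell. Kcnab2 fell in farnesol (451 ± 22.6 against 491 ± 29.5 CPM, -0.12 ± 0.04, adjusted p = 0.0296) and vehicle EAE (431 ± 19.6 CPM, -0.20 ± 0.05, adjusted p = 0.000717), while its relative Kcnab3 rose in vehicle EAE (74.1 ± 5.54 against 66.7 ± 3.55 CPM, 0.14 ± 0.05, adjusted p = 0.0411) and Kcnab1 fell in untreated EAE (-0.14 ± 0.04, adjusted p = 0.00838). With no count filter the calls of Kcnab1, of Kcnab3 and of Kcnab2 in farnesol EAE were lost. That of Kcnab2 was also lost with a minimum count of 30 and with the replicate block, and that of Kcnab3 without the libraries low in cerebellar genes and without those with Sbp. Kcne1l, a small regulatory subunit, fell in farnesol EAE (-0.27 ± 0.10, adjusted p = 0.0412) but was not called within the second library set (-0.23) and lost its call in 6 of 11 alternatives in all.

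Marker lists of brain regions and cells are given beside these falls, where 16.3%, 15.2% and 11.3% of all genes fell in farnesol, vehicle and untreated EAE. Of 11 olfactory bulb markers 9, 5 and 6 were lower in farnesol, vehicle and untreated EAE. Their summed level was 780 to 1258, 883.2 to 1106 and 987.4 to 1421 CPM there, against 1190 to 1525 CPM in naive libraries. The list includes Slc17a7, Th and Trh, and whether these are confined to the bulb was not tested. Such a sum is weighted to its most abundant genes, so it does not measure bulb content by itself. Of 12 markers of cerebral cortex and hippocampus 3, 6 and 1 were lower, with sums of 598.7 to 887.5, 605 to 738.2 and 685.4 to 883.6 CPM, against 742.4 to 925.5 CPM in naive libraries. The vehicle libraries did not overlap the naive range for either list, where 6.82% of all single genes tested did not overlap. Vehicle and naive libraries are also of different library sets. Of 10 markers of GABAergic neurons 4, 5 and 5 were lower. Of 11 striatal markers 1 was lower in each comparison, of 9 thalamic markers 1, 0 and 1, and of 12 oligodendrocyte markers 3, 2 and 2. Their part in the falls of the channel genes was not tested. Summed over 16 genes, cerebellar markers ran from 867.9 to 3736 CPM in farnesol, 2571 to 3734 in vehicle, 877.3 to 3732 in untreated and 892.8 to 3533 CPM in naive libraries. Without the 3 libraries low in them, 57 of the 64 calls of members over all comparisons kept direction and call. The other 7 kept direction but were not called.

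**Figure D4:**
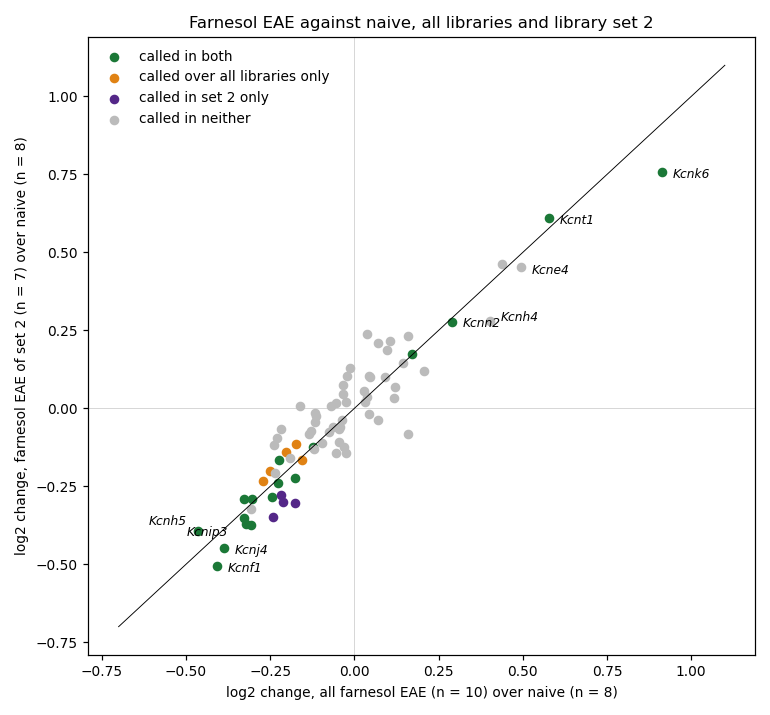
Log2 change of 77 members in farnesol EAE over naive brain, from all libraries (horizontal axis, n = 10 and 8) and within the second library set (vertical axis, n = 7 and 8), with the line of equal values. Green points were called in both, orange over all libraries only, purple in the second set only; Kcnk6, Kcnt1 and Kcnn2 stand to the upper right and Kcnf1, Kcnj4 and Kcnh5 to the lower left.

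In the second library set CT010467.1 ran from 5081 to 17494 CPM in farnesol and from 7417 to 10703 CPM in naive libraries. Its level was thus not matched between the groups. Farnesol against naive within this set gave 22 called members, 4 higher and 18 lower. There 28.2% of all genes were called, 14.9% higher and 13.3% lower. Of the 22 members called over all libraries 17 were called there, and all 22 kept their sign. The 5 not called were Kcnj10, Kcnc4, Kcnd2, Kcne1l and Kcnn1, and 5 others fell there that had not been called over all libraries, among them Kcnv1 (-0.35 ± 0.10), Kcnq5 (-0.30 ± 0.09), Kcnk2 (-0.30 ± 0.09) and Kcna4 (-0.28 ± 0.09). Kcnip3 (-0.35 ± 0.05), Kcns2 (-0.37 ± 0.06), Kcnb2 (-0.37 ± 0.07), Kcnj3 (-0.24 ± 0.05) and Kcnh1 (-0.29 ± 0.06) were among those that fell in both fits.

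The comparison of farnesol with corn oil vehicle asks whether channel genes differed with farnesol in EAE brain. All 9 vehicle libraries were of the first library set and 7 of the 10 farnesol libraries of the second. Group and set therefore cannot be fully told apart here. None of the 80 members was called (0 by edgeR, where 0.0922% of all genes were called; 0 by DESeq2 and by limma-voom), and 3 had an unadjusted p below 0.05. Those were Kcng3, a silent subunit, with 2.91 ± 0.579 CPM in farnesol against 2.10 ± 0.698 CPM in vehicle EAE (0.48 ± 0.19, 95% interval 0.11 to 0.86, adjusted p = 0.648), Kcnq3 (0.16 ± 0.07, adjusted p = 0.738) and Kcna4 (0.21 ± 0.09, adjusted p = 0.770). The 95% interval of the difference lay within 1 on the log2 scale for all 80 members and within 0.5 for 71. For Kcnk6 the difference was 0.00 ± 0.19 and for Kcnt1 -0.02 ± 0.08. Differences inside these intervals remain compatible with the data, so the lack of a call does not show equal levels.

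Against untreated EAE, 1 member was called in farnesol EAE and 1 in vehicle EAE, where 1.87% and 0.0217% of all genes were called, and both were Kcnip3 (chr2:127456498-127522094). Kcnip3 encodes a calcium-binding protein, also known as DREAM, that is an auxiliary subunit of Kv4 channels and a transcriptional repressor in neurons. It ran over 76.9, 88.5 and 106 CPM in farnesol EAE, 81.9, 89.7 and 98.99 CPM in vehicle EAE, 97.6, 104 and 129.8 CPM in untreated EAE, and 106, 111 and 119 CPM in naive brain. Both gavaged groups were low, while the untreated EAE libraries overlapped the naive ones, with 5 of 9 below and 1 above the naive range. In farnesol EAE it was lower than in untreated EAE by a log2 difference of -0.29 ± 0.05 (9 of 10 libraries below all untreated ones, adjusted p = 0.00146), and in vehicle EAE by -0.28 ± 0.05 (7 of 9 below all untreated ones, adjusted p = 0.0391). Against naive it fell in farnesol (-0.33 ± 0.05, adjusted p = 1.63e-05) and vehicle EAE (-0.32 ± 0.05, adjusted p = 3.33e-05), and was at -0.04 ± 0.05 in untreated EAE (adjusted p = 0.677). Between farnesol and vehicle EAE the difference was -0.01 ± 0.05. The farnesol and vehicle comparisons share the untreated libraries. The call against untreated EAE was lost in farnesol with a term for the library set (-0.22, adjusted p = 0.166) and with the 3 farnesol libraries of the first set alone (-0.22, adjusted p = 0.432), and in vehicle EAE when the 2 groups were fitted alone (-0.28, adjusted p = 0.148) or without the libraries with Sbp (-0.25, adjusted p = 0.214). The other Kcnip members were not called in any comparison, and of the Kv4 genes Kcnd2 differed from untreated EAE by -0.01 ± 0.07 in farnesol and 0.06 ± 0.07 in vehicle EAE, neither called. At an unadjusted p below 0.05 there were 8 members in farnesol and 11 in vehicle EAE against untreated EAE.

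**Figure D5:**
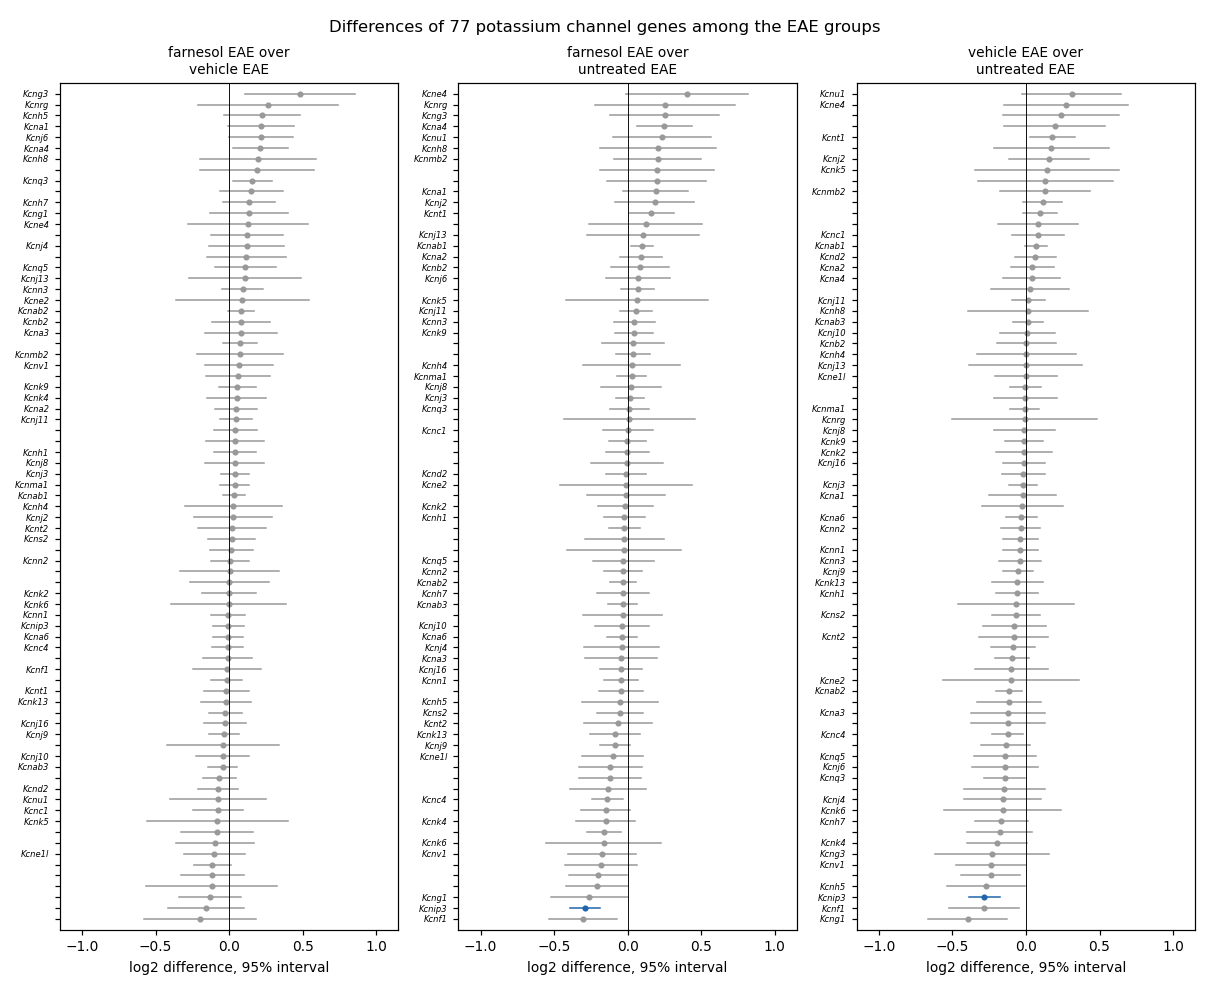
Log2 difference with its 95% interval for 77 members between farnesol and vehicle EAE, farnesol and untreated EAE, and vehicle and untreated EAE, each panel sorted by its difference. Blue points were called; Kcnip3 is the member called in the middle and right panels and none is in the left panel.

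Genes outside the Kcn list whose proteins bind or cluster these channels were tested in the same fit, and more of them fell than rose. Of 29 partners tested, 1, 2 and 2 rose and 16, 16 and 15 fell in farnesol, vehicle and untreated EAE, where 17.9%, 16.3% and 13.6% of all genes rose and 16.3%, 15.2% and 11.3% fell. Their median log2 changes were -0.14, -0.17 and -0.13, beside 0.01, 0.00 and -0.01 over all genes. Cntnap2, which anchors Kv1 channels beside the node, fell by 0.23, 0.31 and 0.29 (adjusted p = 0.000612, 2.98e-05 and 9.44e-05). Dpp6, an accessory subunit of Kv4 channels, fell by 0.23, 0.20 and 0.24, and Amigo1, an accessory subunit of Kcnb channels, fell by 0.25, 0.20 and 0.15. Gnb1, a G-protein beta subunit that opens the channels of Kcnj3, fell by 0.23, 0.24 and 0.21. Sptbn4, the spectrin of nodes and axon initial segments, rose by 0.27, 0.25 and 0.37 (adjusted p = 0.00505, 0.00858 and 0.000417). Abcc8, the sulfonylurea receptor that joins Kcnj11, rose in vehicle (0.31 ± 0.09) and untreated EAE (0.26 ± 0.09). Of the hyperpolarisation-activated channels, 1 of 4 fell in each comparison, Hcn4, by 0.36, 0.35 and 0.38.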

How the data were processed

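RNA of whole brains was sequenced in 36 libraries, and per the labels' protocols NEBNext Ultra was the library kit. The authors deposited 1 table of raw read counts per gene, with 1 column per library; all 36 columns were used and no 2 were identical. Reads were mapped to mm10 with STAR 2.5, per the submitters' processing notes, and the labels' protocols also name Kallisto. Which tool counted the reads, on which annotation and whether by strand is not given in the sources used here; members overlapping another gene are therefore uncertain.

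Counts were tested with edgeR 4.0.16 (quasi-likelihood F test, TMM scaling, filterByExpr with a minimum count of 10 and a minimum total of 15, 1 mean per group over all 36 libraries) in R 4.3.3. P-values were adjusted over the 18438 genes tested by the Benjamini-Hochberg method and called at an adjusted p below 0.05. CPM are on TMM effective library sizes; levels per length use the union of exons in GENCODE M21 on GRCm38, from which coordinates also come. The CPM rule gave the same 80 members by total counts, 83 at a threshold of 0.5 CPM and 74 at 2 CPM. Totals of at least 14705992 counts put the members' precision mainly in the spread between libraries, a median coefficient of variation of 16.1% in farnesol, 11.4% in vehicle, 15.2% in untreated and 12.8% in naive brain. The edgeR fit was tested on simulated data. DESeq2 1.42.0, limma 3.58.1 (voom), RLE scaling, other count filters, a replicate block, library-set terms and left-out libraries were tried as alternatives.

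Named genes were the called members with the 10 largest rises and falls in each comparison with naive, called members or the 3 of smallest p among EAE groups, the 3 highest levels per length, and a list of members with known roles. Named outside this rule, after their values were seen, were Kcna6, Kcnab1, Kcnc4, Kcnj2, Kcnj9, Kcnk2, Kcnn1, Kcnn3, Kcnq5, Kcnt2 and Kcnv1, besides the lowest members. Values by library are given for 12 members: the 11 called in each comparison with naive, and Kcnip3, added after its values were seen. The members and gene lists were chosen with earlier results of these data known. Some genes that the rule names are not reported here, and they are not drawn; counts and sums over members include them.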

Additional observations from a re-analysis of the deposited data

Results flagged for a closer look

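Among the 12 members given by library, 48 combinations of member and group were examined for a library standing apart from the others of its group, which chance gives in about 1 in 20 groups, and 3 stood apart. Kcns2 reached 37.5 CPM in farnesol replicate 2, where the next library had 30.5 CPM, and Kcnb2 reached 34.8 CPM in the same library, where the next had 25.6 CPM. Kcnq3 reached 209 CPM in naive replicate 4, where the next had 179.7 CPM. Both libraries were low in cerebellar genes.

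Kcnip3 differed between EAE groups under a test of the difference itself. It was lower in farnesol than in untreated EAE, with a log2 difference of -0.29, and lower in vehicle than in untreated EAE, with a log2 difference of -0.28.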

How the results depend on the processing

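The 64 calls of single members, counted once per comparison, were recomputed under each alternative that applied, 663 values in all: 571 kept direction and call, 90 kept direction but were not called, and 2 reversed. The calls that passed under every alternative numbered 22. With a term for the library set, 9 members were called in vehicle against naive (25 in the reported fit) and 1 in untreated against naive (15); Kcnc4 in vehicle against naive turned to 0.0196 and Kcnd2 in untreated against naive to 0.00817, both log2. For farnesol against untreated, 0 were called with libraries of 1 set (3 farnesol libraries), 1 with the set term, which was Kcnj2, higher and not called otherwise, and 2 without the libraries low in cerebellar genes, Kcnip3 and Kcnf1. For vehicle against untreated, 0 were called when only those groups were fitted and 0 without the libraries with Sbp. The causes were not tested. All 64 calls kept direction and call with limma-voom. With no count filter 49 did, and the other 15 kept direction but were not called. Replicate numbers did not pair the libraries: over 51 same-numbered pairs the median correlation was 0.00799, 10 were over 0.1, and 5 of 36 libraries correlated best with their own number. With the number as a replicate block, 60 of the 64 calls kept direction and call, and 4 kept direction but were not called. In that fit 0 members were called between farnesol and vehicle, and 1 in each comparison with untreated EAE. Depth limits mainly the members near 1 CPM, such as Kcnh8, Kcnrg and Kcnk5.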

Other observations

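Below the level rule, Kcnn4, the calcium-activated channel of activated lymphocytes and microglia, averaged 0.759 ± 0.367 CPM in farnesol, 1.04 ± 0.841 in vehicle and 0.777 ± 0.414 in untreated EAE, against 0.513 ± 0.337 CPM in naive brain. Kcnk15, of the paired-pore-domain subfamily, averaged 0.295 ± 0.171 CPM in farnesol, 0.477 ± 0.322 in vehicle and 0.393 ± 0.290 in untreated EAE, against 1.145 ± 0.661 CPM in naive brain. Both were left out of the counts by the rule, and their values are given after they were seen.

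Kcne4 and Kcnh4 are given here after their values were seen, as members with positive changes that were not called. Kcne4, a regulatory subunit, was at 0.49 ± 0.21 in farnesol, 0.36 ± 0.22 in vehicle and 0.09 ± 0.22 in untreated EAE on the log2 scale, from 1.65 CPM in farnesol EAE and 1.16 CPM in naive brain. Kcnh4, a neuronal channel of the elk branch, was at 0.40 ± 0.17, 0.37 ± 0.17 and 0.37 ± 0.17 (adjusted p = 0.0656, 0.0984 and 0.117 by edgeR), with means of 14.4, 14.3 and 14.3 CPM in farnesol, vehicle and untreated EAE and 10.9 CPM in naive brain.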
